A study of Homo sapiens with 4 samples.

Results

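The genes described here are 5 receptor tyrosine kinases, EGFR, ERBB2, ERBB3, MET and AXL, and 4 ligands of EGFR, AREG (amphiregulin), EREG (epiregulin), HBEGF (heparin-binding EGF-like growth factor) and TGFA (transforming growth factor alpha). They were chosen by name, with earlier results of these data known. They are 9 of the 59652 genes of the count table, and each of them had a row in it. RNA was sequenced from Huh7 and PLC cells, both hepatocellular carcinoma cell lines of wild-type genotype, to compare high with low glucose. Cells of each line were kept for 48 h in glucose-free DMEM with 10% FBS, to which glucose was added to 5 mM (low glucose) or 25 mM (high glucose). With 1 library for every combination of line and concentration, 4 in all, no culture was repeated, and nothing within 1 line has a replicate check.

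Receptor tyrosine kinases span the cell membrane and carry a growth signal inward when a ligand joins them in pairs. The ligands AREG, EREG, HBEGF and TGFA are made as membrane-bound precursors that metalloproteases release, and they bind EGFR, while EREG and HBEGF also bind ERBB4. ERBB2 has no known ligand and acts as a partner, ERBB3 binds neuregulins and has little kinase activity of its own, MET is the receptor of hepatocyte growth factor, and AXL is the receptor of GAS6. In the liver, EGFR and MET are known for their part in the regrowth of hepatocytes after tissue loss, and AXL for its link with mesenchymal traits of tumour cells.

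The libraries held between 16049686 and 30279716 counted reads, the fewest in PLC cells at 25 mM. Counts were turned into FPKM, the reads scaled by exon length and by the total of counted reads, which allows levels of different genes to be compared, and 19445 to 20263 genes per library had an FPKM over 0.5. The liver label was checked against 8 hepatocyte or liver tumour markers, of which 8, 8, 6 and 7 had an FPKM over 1 in the order Huh7 at 5 mM, Huh7 at 25 mM, PLC at 5 mM and PLC at 25 mM. Their summed FPKM was 4765, 4891, 641.7 and 1413 in the same order, so it was lower in both PLC libraries and differed between them. The transcription factor HNF4A was at an FPKM of 29.0 to 38.5 in all 4 libraries. None of 3 immune markers had an FPKM over 1, and their summed FPKM lay between 0.0255 and 0.0576. Of 5 fibroblast or mesenchymal markers, 1, 1, 0 and 1 had an FPKM over 1 in the 4 libraries, with sums of 5.47, 6.52, 0.933 and 1.36, and of 3 endothelial markers 1, 1, 0 and 0, with sums of 2.37, 2.55, 0.122 and 0.310. Of 4 epithelial markers 4, 4, 3 and 3 passed that level.

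EREG and AREG, the ligands on which the results below turn, are neighbours on chromosome 4 of hg38, on the plus strand. EREG lies at chr4:74365145-74388749 and AREG at chr4:74445136-74455005, with 56.4 kb between them. HBEGF lies on the minus strand at chr5:140332843-140346603 and TGFA on the minus strand at chr2:70447284-70554193. The receptors are on the plus strand, EGFR at chr7:55019017-55211628, MET at chr7:116672196-116798386, ERBB2 at chr17:39687914-39730426, ERBB3 at chr12:56076799-56103505 and AXL at chr19:41219223-41261766. All 9 are protein-coding genes.

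EREG and AREG were the members called lower at high glucose in both lines by the thresholds below. HBEGF is the third ligand with an FPKM over 0.5. The 100 bases before the RefSeq start of EREG, AREG and HBEGF are therefore given (GRCh38.p14, 5′ to 3′ on the strand of the gene). They cover chr4:74365045-74365144 on the plus strand, chr4:74445036-74445135 on the plus strand and chr5:140346604-140346703 on the minus strand, and no exon of the count table overlaps them. Capitals mark the TATA box letters TATAAA and the cAMP response element letters TGACGTCA, and where there are no capitals neither was found.
EREG: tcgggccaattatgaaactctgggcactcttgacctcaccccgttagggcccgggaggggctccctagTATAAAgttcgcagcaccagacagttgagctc
AREG: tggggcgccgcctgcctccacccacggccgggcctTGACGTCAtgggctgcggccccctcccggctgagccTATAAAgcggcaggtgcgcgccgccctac
HBEGF: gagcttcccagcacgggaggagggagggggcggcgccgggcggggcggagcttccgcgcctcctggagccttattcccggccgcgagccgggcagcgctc
The letters TATAAA begin 32 bases before the start in EREG and 29 bases before it in AREG. In AREG, TGACGTCA begins 65 bases before the start.

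These letters were searched on both strands in windows of 250 bases before to 50 bases after the start, in 35116 RefSeq promoters. Of the 9 genes, 8 matched the promoter table, with 11 promoters in all, and ERBB3 did not match. TATAAA was in 11.5% of all promoters and in those of AREG, EREG and EGFR, and TGACGTCA was in 1.85% of all promoters and among the members in that of AREG. The AP-1 letters TGANTCA were in 7.71% of all promoters and in those of EGFR and ERBB2. The TEAD letters CATTCC were in 14% and in those of AXL, EGFR and EREG, and the E-box letters CACGTG were in 7.26% and in that of MET. All matches of EGFR belong to a start at chr7:55109839, inside the gene, which begins at 55019017. The match of AXL likewise belongs to a start at chr19:41226755, inside the gene, which begins at 41219223. No searched motif was shared by all 4 ligands, and a match of letters is a description and no measure of binding.

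The receptors EGFR, MET and ERBB3 were well expressed in both lines. EGFR had an FPKM of 31.5 in Huh7 cells at 5 mM, 28.2 in Huh7 cells at 25 mM, 44.6 in PLC cells at 5 mM and 36.2 in PLC cells at 25 mM, from 8422, 10627, 16905 and 7274 reads. MET had an FPKM of 32.2, 29.2, 41.8 and 27.6 in the same order, from 4981, 6350, 9162 and 3208 reads. ERBB3 had an FPKM of 19.4, 24.6, 22.5 and 27.5, from 3657, 6527, 6024 and 3898 reads. These 3 receptors lay among the 2192 genes with the highest FPKM in every library. EGFR and MET were close to each other, with a ratio of EGFR to MET of 0.977, 0.967, 1.07 and 1.31.

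ERBB2 was lower than these receptors in all 4 libraries. Its FPKM was 6.79, 7.42, 4.47 and 5.87, from 1498, 2303, 1396 and 972 reads, and the FPKM of ERBB3 was 2.85, 3.31, 5.04 and 4.68 times that of ERBB2. AXL was the receptor that set the lines apart. Its FPKM was 0.109 and 0.123 in Huh7 cells, from 12 and 19 reads, and 21.0 and 15.4 in PLC cells, from 3266 and 1268 reads. In PLC cells the FPKM of AXL was 0.502 and 0.557 times that of MET, and in Huh7 cells 0.00339 and 0.00422 times. The 5 receptors summed to an FPKM of 89.96 and 89.5 in Huh7 cells and of 134.4 and 112.6 in PLC cells, and the leading receptor was MET in both Huh7 libraries and EGFR in both PLC libraries.

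Among the 4 ligands chosen, EREG was the most abundant in every library. EGF, a further ligand of EGFR described below, was above EREG in Huh7 cells at 25 mM, at an FPKM of 2.72. The FPKM of EREG was 4.504 and 1.13 in Huh7 cells at low and high glucose, from 550 and 194 reads, and 125.7 and 38.1 in PLC cells, from 21737 and 3498 reads. EREG was thus higher in both PLC libraries than in both Huh7 libraries, and within each line higher at 5 mM. In bulk RNA, fewer cells that express a gene and less of its RNA per cell cannot be told apart. In PLC cells at 5 mM it ranked 209 of all genes by FPKM, and in Huh7 cells at 25 mM 15747. AREG had the same order of libraries, with an FPKM of 1.82 and 0.810 in Huh7 cells, from 64 and 40 reads, and 31.6 and 16.6 in PLC cells, from 1573 and 438 reads. EREG was above AREG in each library, by 2.47, 1.39, 3.97 and 2.30 times.

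HBEGF was low in all 4 libraries and lowest in PLC cells. Its FPKM was 1.25, 0.912, 0.685 and 0.250, from 80, 82, 62 and 12 reads. TGFA was at the limit of detection, with 0, 2, 24 and 0 reads, beside a detection floor set at 3 reads, or 0.140, 0.0997, 0.0991 and 0.187 CPM (reads scaled by the library total alone). Only its level in PLC cells at 5 mM, an FPKM of 0.161, was above that floor. The 4 ligands summed to an FPKM of 7.58 and 2.86 in Huh7 cells against 158.1 and 55.0 in PLC cells, of which EREG held 59.4%, 39.4%, 79.5% and 69.3%. Set against the summed receptors, the summed ligands were 0.0843 and 0.032 times as high in Huh7 cells against 1.18 and 0.489 times as high in PLC cells. Of the summed receptors, EGFR alone is named above as a receptor of these ligands. The ligand sum leaves out the EGFR ligands EGF and BTC, described below, which had reads in Huh7 cells only. The quotient is thus no measure of ligand supply.

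The first comparison asks what high glucose does to these genes within each line. EREG and AREG, both released ligands of EGFR, were lower at 25 mM in both lines. The receptors differed less, though in PLC cells MET was 1.51-fold lower, beside 1.90-fold for AREG. A gene was called where its FPKM was over 0.5 in at least 1 of the 2 libraries and its ratio of 25 mM to 5 mM, with an FPKM of 0.1 added to both, was over 1.5 or under 0.67. Ratios printed here leave out the 0.1, and their exact Clopper-Pearson 95% intervals cover counting error only. In Huh7 cells 2 members were called lower and none higher among 7 with enough FPKM, where 27.8% of 21864 genes were called, 14.1% higher and 13.7% lower. In PLC cells 4 were called lower and none higher among 8, where 43.3% of 21749 genes were called, 26.2% higher and 17% lower. That split in PLC cells depends on the scaling, with 5709 genes higher and 3700 lower by library totals, 4802 and 4562 by TMM factors and 4732 and 4646 by DESeq2 size factors.

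EREG was 3.99-fold lower at 25 mM in Huh7 cells (interval 3.38 to 4.72) and 3.29-fold lower in PLC cells (3.18 to 3.41). Of all genes with enough FPKM, 2.41% had a lower ratio than EREG in Huh7 cells and 4.58% in PLC cells. AREG was 2.25-fold lower at 25 mM in Huh7 cells (1.49 to 3.43) and 1.90-fold lower in PLC cells (1.71 to 2.12), with a lower ratio in 6.24% and 10.3% of genes. Both were therefore further from 1 than the counting error, in a line where they are scarce and in a line where they are abundant. Genes called lower in both lines made up 3.82% of the 18108 genes with enough FPKM in both, and among the members they were EREG and AREG. In each line the ratio was further from 1 for EREG than for AREG, as the quotient of EREG to AREG FPKM went from 2.47 to 1.39 in Huh7 cells and from 3.97 to 2.30 in PLC cells.

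The other ligands had too few reads for a firm statement. HBEGF had a ratio of 0.728 in Huh7 cells (interval 0.529 to 1.004), which was not called. In PLC cells its ratio was 0.365 (0.179 to 0.684), from 62 and 12 reads, which was called lower. TGFA, with 24 reads at 5 mM and none at 25 mM in PLC cells, was at least 4.24-fold lower against the floor of 3 reads per library, but its FPKM was under 0.5 and it was not called. In Huh7 cells both libraries were under the floor, and no ratio was formed.

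EGFR and MET were lower at 25 mM in both lines, and ERBB2 and ERBB3 higher, all by small factors. For EGFR the ratio was 0.897 in Huh7 cells (interval 0.871 to 0.923) and 0.812 in PLC cells (0.790 to 0.835). For MET it was 0.906 (0.873 to 0.940) and 0.661 (0.634 to 0.688), and the PLC value is just past the threshold of 0.67. Only MET among the receptors was thus called, and in 1 line. ERBB2 had a ratio of 1.09 (1.02 to 1.17) and 1.31 (1.21 to 1.43), and ERBB3 of 1.27 (1.22 to 1.32) and 1.22 (1.17 to 1.27). These directions were the same with TMM factors, DESeq2 size factors and an FPKM of 1 added. AXL had a ratio of 1.125 in Huh7 cells (0.519 to 2.54), where it was barely detected, and 0.733 in PLC cells (0.686 to 0.782), which was called lower by DESeq2 size factors only.

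The median log2 ratio of the receptors with 20 reads or more in 1 library was -0.01 in Huh7 cells (4 receptors) and -0.30 in PLC cells (5 receptors). That of the ligands was -1.08 (3 ligands) and -1.27 (4 ligands). The Huh7 value is that of AREG, with TGFA left out. The PLC value lies between HBEGF (-1.16) and TGFA (-1.39), which had few reads, so the ligand medians are not like for like. Over all genes the median log2 ratio was 0.05 in both lines. In PLC cells the TMM factors moved it to -0.06 and DESeq2 size factors to -0.07. In PLC cells the summed FPKM of the hepatocyte markers also differed with glucose, 641.7 at 5 mM and 1413 at 25 mM, mostly through AFP (306.3 and 1011), and its part in the glucose ratios was not tested.

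**Figure D1:**
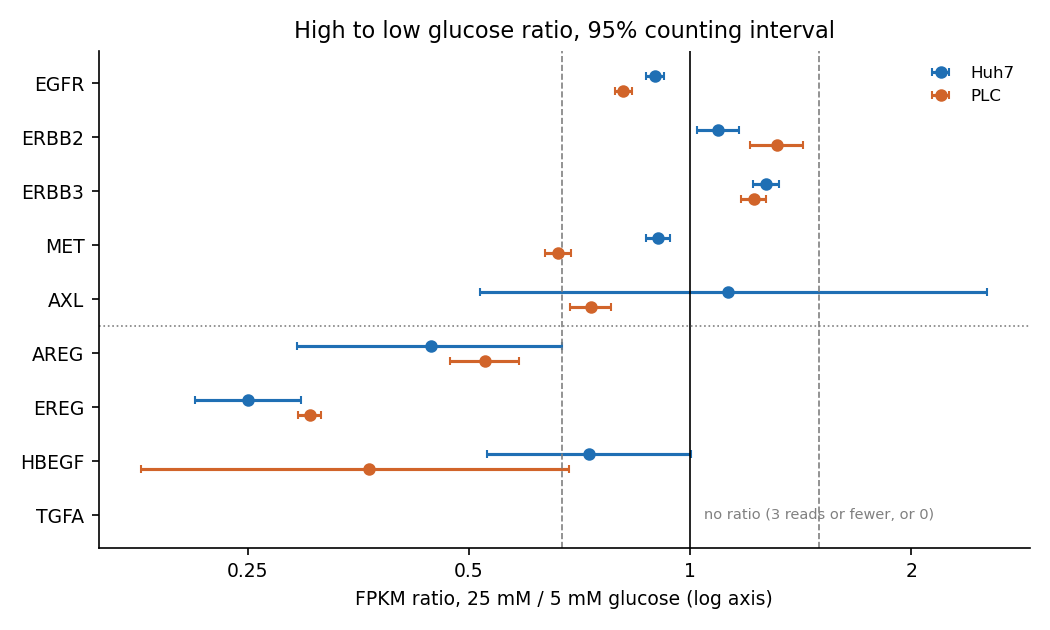
FPKM ratio of 25 mM to 5 mM glucose in Huh7 (blue) and PLC cells (orange) on a log axis, with bars for the exact 95% interval of counting error, and dashed lines at 0.67 and 1.5. EREG lies near 0.25 in Huh7 and 0.304 in PLC cells and AREG at 0.444 and 0.525, left of the lower line in both, while EGFR, ERBB2 and ERBB3 lie between the lines.

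Whether both lines moved the same way with glucose was asked by edgeR's quasi-likelihood fit, in which cell line and glucose are additive terms and their interaction gives the only residual degree of freedom. The lines thus stand in for replicates, although they are not replicate cultures. The fit draws the spread of each gene towards that of all genes. Its p-values therefore rest on this pooled spread as well as on how alike both lines moved. EREG passed, with a log2 change of -1.93 (SE 0.21, adjusted p = 0.00166), and it fell in 2 of 2 lines. AREG had a log2 change of -1.11 (SE 0.29, edgeR adjusted p = 0.15), lower in 2 of 2 lines, and did not pass. Thus 1 of the 8 members tested was called, where 0.379% of 23217 genes were called, 0.0646% higher and 0.314% lower. At an unadjusted p under 0.05 there were 2 members, EREG and AREG, among 1979 genes. TGFA had too few reads to enter the fit.

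The other members gave smaller values in this fit, and none of them passed. By edgeR, HBEGF had a log2 change of -0.95 (SE 0.49, adjusted p = 0.665), and MET of -0.45 (SE 0.22, adjusted p = 0.618). EGFR had a log2 change of -0.31 (SE 0.19, edgeR adjusted p = 0.771) and AXL of -0.39 (SE 0.30, adjusted p = 0.85). ERBB3 and ERBB2 were on the other side of 0, at 0.24 (SE 0.21, edgeR adjusted p = 0.881) and 0.18 (SE 0.23, adjusted p = 0.948). The adjusted p of EREG ranged from 2.01e-16 to 1 over 7 other settings, and it passed in 6 of them. The exception is a fit with no term for cell line, in which the difference between the lines counts as error. AREG passed in 1 setting, with no filter on low counts (adjusted p = 0.0419).

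**Figure D2:**
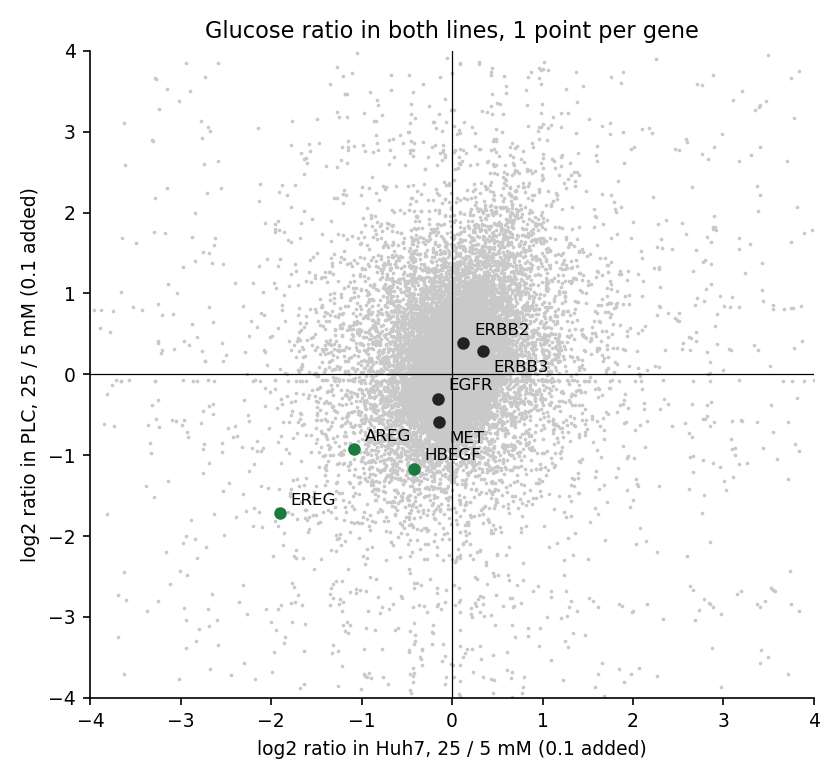
Log2 FPKM ratio of 25 mM to 5 mM glucose in Huh7 (x axis) against PLC cells (y axis), 0.1 added, for 18108 genes with enough FPKM in both lines (grey), of which 253 lie outside the axes. Receptors are black and ligands green; EREG lies at -1.91 and -1.72, further towards the lower left corner than AREG at -1.08 and -0.92, and the receptors lie in the centre of the cloud.

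The comparison of the lines at matched glucose asks which receptors and ligands each line expresses. PLC cells had far more AXL, EREG and AREG than Huh7 cells at both glucose levels, while EGFR, ERBB3 and MET differed by less than 1.5-fold. By the same thresholds 3 members were higher and 2 lower in PLC cells at 5 mM, where 66.8% of 23485 genes were called, 30.9% higher and 35.9% lower. At 25 mM, 3 were higher and 1 lower, where 65.1% of 23824 genes were called, 32.9% higher and 32.2% lower. So large a share of genes differed between the lines that the count of members past the thresholds is near the background.

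AXL was 192.1-fold higher in PLC than in Huh7 cells at 5 mM (interval 109.8 to 372.2) and 125.1-fold higher at 25 mM (79.8 to 208.5). With 0.1 added to the FPKM the same ratios were 100.8 and 69.5, since AXL was near 0.1 FPKM in Huh7 cells. EREG was 27.9-fold higher at 5 mM (25.6 to 30.4) and 33.8-fold at 25 mM (29.2 to 39.3). AREG was 17.4-fold higher at 5 mM (13.5 to 22.6) and 20.5-fold at 25 mM (14.8 to 29.1). Among genes with enough FPKM, a higher ratio was found for 0.264% and 0.588% in the case of AXL, 1.69% and 1.48% for EREG and 2.98% and 2.79% for AREG at 5 mM and 25 mM. These 3 genes therefore lay at the edge of the distribution at both concentrations. TGFA was at least 5.65-fold higher in PLC cells at 5 mM against the floor of 3 reads.

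HBEGF went the other way from EREG and AREG. Its ratio of PLC to Huh7 cells was 0.547 at 5 mM (interval 0.386 to 0.772) and 0.274 at 25 mM (0.136 to 0.506). The ratio of EREG to HBEGF was 3.60 and 1.24 in Huh7 cells against 183.5 and 152.6 in PLC cells. Of the other receptors, ERBB2 was lower in PLC cells, at 0.658 (0.611 to 0.708) at 5 mM, which was called, and 0.791 (0.733 to 0.853) at 25 mM, which was not. EGFR had ratios of 1.42 (1.38 to 1.46) and 1.28 (1.25 to 1.32), and ERBB3 of 1.16 (1.12 to 1.21) and 1.12 (1.08 to 1.17). MET changed sides with glucose, at 1.30 (1.25 to 1.34) and 0.947 (0.907 to 0.988). The hepatocyte marker sum was also lower in PLC cells, and its part in these differences was not tested.

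**Figure D3:**
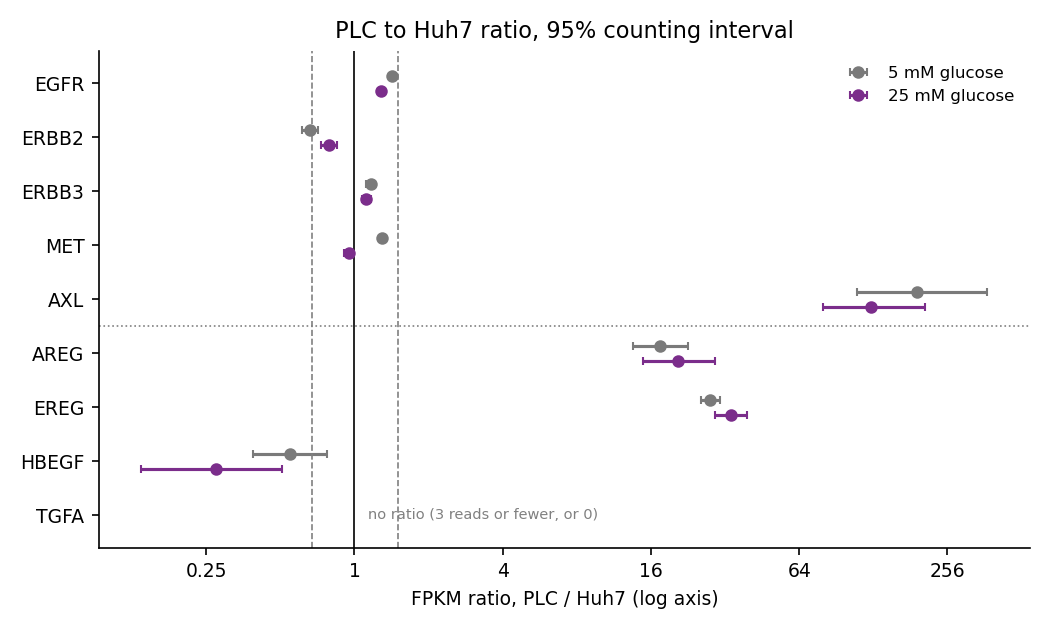
FPKM ratio of PLC to Huh7 cells at 5 mM (grey) and 25 mM glucose (purple) on a log axis, with bars for the exact 95% interval of counting error, and dashed lines at 0.67 and 1.5. AXL lies at 192.1 and 125.1, EREG and AREG lie between 17.4 and 33.8, and HBEGF lies at 0.547 and 0.274. EGFR, ERBB2, ERBB3 and MET lie between 0.658 and 1.42, with ERBB2 at 5 mM left of the lower line.

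In the edgeR fit the line difference passed for 4 of 8 members, where 43% of 23217 genes passed, 21.1% higher and 21.9% lower in PLC cells. AXL had a log2 difference of 7.24 (SE 0.35, edgeR adjusted p = 5.75e-09), EREG of 4.94 (SE 0.24, adjusted p = 6.61e-09) and AREG of 4.24 (SE 0.32, adjusted p = 2.8e-07). All 3 passed in each of 11 other settings, with an adjusted p of at most 0.000107, 0.00621 and 0.00189. HBEGF passed with a log2 difference of -1.29 (SE 0.49, edgeR adjusted p = 0.0484), but in 4 of 11 other settings only (adjusted p from 0.009 to 0.437). EGFR at 0.44 (SE 0.19, edgeR adjusted p = 0.0889), ERBB2 at -0.47 (SE 0.23, adjusted p = 0.124), ERBB3 at 0.20 (SE 0.21, adjusted p = 0.477) and MET at 0.15 (SE 0.22, adjusted p = 0.6) did not pass. The fits that left out 1 library had no term for glucose, so a change with glucose enters their line difference. Without the PLC library at 25 mM, the one with the fewest reads, PLC cells at 5 mM stood against both Huh7 libraries. The log2 difference was then 0.67 for EGFR, 0.54 for MET, -0.57 for ERBB2 and -0.56 for HBEGF. Each line was grown as 1 culture per condition, so what belongs to the line and what belongs to the culture cannot be told apart.

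The other genes of the pathway were grouped by role into lists of 63 genes in all, of which 59 entered the fit. By edgeR 0 of them passed the test for a shared glucose change, with 9 at an unadjusted p under 0.05, and 0 passed by DESeq2 or limma. With no filter on low counts 4 passed, DUSP6, MST1, NRG1 and PHLDA1. Glucose values of these genes are therefore given as ratios within a line. Lists were not tested against the other genes. Of 4 other receptors of the same families, ERBB4 was higher and TYRO3 lower in PLC cells. ERBB4, which binds neuregulins and also EREG and HBEGF, had an FPKM of 0.0575 and 0.0204 in Huh7 cells against 1.92 and 2.16 in PLC cells (log2 difference 5.80, SE 0.45, edgeR adjusted p = 3.66e-07). TYRO3, of the family of AXL, had an FPKM of 4.92 and 5.47 in Huh7 cells against 0.236 and 0.255 in PLC cells (log2 difference -4.39, SE 0.30, edgeR adjusted p = 1.23e-07). MERTK, the remaining receptor of that family, was detected in both lines, at 5.88 and 6.45 in Huh7 cells against 4.63 and 3.58 in PLC cells. AXL was thus the family member with the highest FPKM in PLC cells, while TYRO3 and MERTK were above AXL in Huh7 cells.

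Of 11 other ligands, 8 entered the fit, and 1 was higher and 5 lower in PLC cells, where 21.1% of all genes were higher and 21.9% lower. EGF, the ligand that gives EGFR its name, had 481 and 625 reads in Huh7 but none in PLC cells, and was at least 227.1-fold lower in PLC cells at 5 mM and at least 111.1-fold at 25 mM. BTC (betacellulin), a further EGFR ligand, had 82 and 50 reads in Huh7 but none in PLC cells, at least 38.7-fold and 8.89-fold lower. EGF and BTC therefore had the opposite order of lines to EREG and AREG. The ERBB3 ligand NRG1 (233, 88, 4 and 0 reads) and NRG4 were also lower in PLC cells, as was PROS1, protein S, a ligand of TYRO3 and MERTK, with an FPKM of 39.4, 45.9, 17.9 and 16.1. The gene called higher was MST1, which has near-identical copies and is therefore uncertain. GAS6, the ligand of AXL, had 8, 1, 2 and 0 reads. In Huh7 cells BTC, at a ratio of 0.433 (interval 0.298 to 0.623), NRG1, at 0.268 (0.208 to 0.344), and MST1 were called lower at 25 mM. They were among 6 with enough FPKM, where 13.7% of all genes were called lower. In PLC cells EPGN (22 reads at 5 mM and 38 at 25 mM) and NRG4 (37 and 51) were called higher. They were among 4 with enough FPKM, where 26.2% of all genes were called higher.

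The proteases and inhibitors that shed or activate ligands numbered 9, of which 2 were higher and 3 lower in PLC cells by edgeR, beside 43% of all genes that passed. ADAM17, the main sheddase of AREG, EREG, HBEGF and TGFA, had an FPKM of 5.61, 4.88, 5.24 and 4.36, and ADAM10, which sheds EGF and betacellulin, of 17.3, 17.9, 17.4 and 18.8. Both were thus at similar levels in the 4 libraries. The inhibitors of the proteases that activate hepatocyte growth factor had opposite orders in the lines. SPINT2 had no reads in Huh7 cells but 1151 and 830 in PLC cells, at least 270.9-fold and 518.6-fold higher, and SPINT1 had 72 and 27 reads in Huh7 but none in PLC cells, at least 34.0-fold and 4.80-fold lower. HPN (hepsin), such a protease, had an FPKM of 2.75 and 1.17 in Huh7 cells against 0.274 and 0.277 in PLC cells. In Huh7 cells HPN and SPINT1 were called lower at 25 mM among 6 genes with enough FPKM, where 13.7% of all genes were called lower. In PLC cells no gene of this list was called among 5, where 43.3% of all genes were called.

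Among 15 adaptors and signal carriers, 5 were higher (NRAS, SHC1, HRAS, SOS2 and MAPK3) and 2 lower (GAB1 and PLCG1) in PLC cells, where 43% of all genes passed. GAB1, a docking protein of MET and EGFR, had an FPKM of 10.9 and 10.5 in Huh7 cells against 1.99 and 1.95 in PLC cells (log2 difference -2.44, SE 0.24, edgeR adjusted p = 3.48e-06). HRAS had an FPKM of 4.06 and 4.97 in Huh7 cells against 10.2 and 12.6 in PLC cells (log2 difference 1.34, SE 0.30, edgeR adjusted p = 0.0026). The median log2 glucose ratio of the list was 0.01 in Huh7 and 0.07 in PLC cells, beside 0.05 over all genes. GAB2 was called lower in Huh7 cells and SOS2 in PLC cells, where 13.7% and 17% of all genes were called lower. Single genes went both ways, with log2 ratios from -0.63 to 0.30 in Huh7 and from -0.63 to 0.51 in PLC cells.

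Of 16 inhibitors and genes of receptor turnover, 2 were higher (USP8 and STUB1) and 6 lower (ERRFI1, SPRED2, LRIG1, CBLB, LRIG3 and CBLC) in PLC cells, beside 43% of all genes. ERRFI1 (MIG6), which binds and inhibits the EGFR kinase, had an FPKM of 79.2 and 66.1 in Huh7 cells against 41.3 and 23.1 in PLC cells (log2 difference -1.22, SE 0.23, edgeR adjusted p = 0.000757). LRIG3 had an FPKM of 19.9 and 20.4 in Huh7 cells against 2.45 and 3.29 in PLC cells (log2 difference -2.82, SE 0.25, edgeR adjusted p = 1.13e-06). With glucose, ERRFI1 had a ratio of 0.835 in Huh7 (interval 0.808 to 0.862) and 0.560 in PLC cells (0.528 to 0.592), the latter called lower. SPRY1, an inhibitor of receptor signalling to ERK, was called higher at 25 mM in both lines, at 1.55 (1.40 to 1.70) and 1.80 (1.64 to 1.98), but did not pass the edgeR test (log2 change 0.66, SE 0.25, adjusted p = 0.415). SPRY2 and SPRY4 were called higher in PLC cells only, at 1.68 and 1.75. In Huh7 cells 1 gene of 16 was called higher and 1 lower, where 14.1% and 13.7% of all genes were. In PLC cells 3 of 15 were called higher and 2 lower, where 26.2% and 17% of all genes were.

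The genes that ERK signalling is known to induce numbered 10, of which SPRY2 and SPRY4 are also in the previous list and 9 entered the fit. By edgeR, DUSP4 and PHLDA1 were higher and EPHA2, ETV5 and DUSP6 lower in PLC cells, where 43% of all genes passed. DUSP4, PHLDA1 and DUSP6 each passed in 7 of 11 other settings, with an adjusted p of up to 0.306, 0.721 and 0.371. DUSP6, the phosphatase of ERK, had an FPKM of 19.98 and 26.5 in Huh7 cells against 6.01 and 19.1 in PLC cells, a glucose ratio of 1.33 (interval 1.25 to 1.41) and 3.18 (2.89 to 3.49). It did not pass the edgeR test of a shared change (log2 change 0.95, SE 0.29, adjusted p = 0.232). In PLC cells 4 of these genes were called higher at 25 mM (SPRY2, SPRY4, DUSP6 and ETV4) and none lower, where 26.2% of all genes were called higher and 17% lower, a split that depends on the scaling as given above. In Huh7 cells 1 was called lower and none higher, where 13.7% of all genes were called lower and 14.1% higher. It was PHLDA1, with an FPKM of 6.86 and 2.12 and a ratio of 0.308 (0.278 to 0.342). The median log2 ratio of the list was -0.17 in Huh7 and 0.20 in PLC cells, and CCND1, cyclin D1, was at an FPKM of 61.4, 49.99, 44.2 and 50.7.

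**Figure D4:**
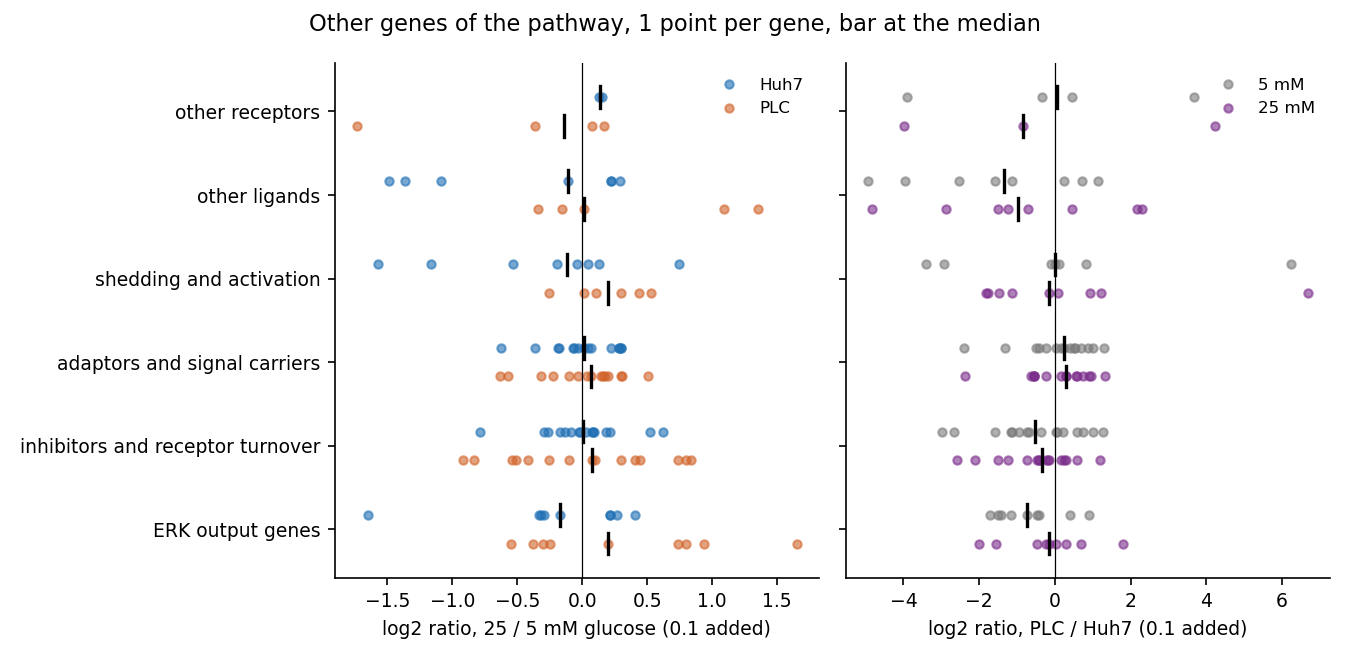
Log2 FPKM ratios (0.1 added) of the genes in each pathway list with 20 reads or more in 1 of both libraries, 1 point per gene and a black bar at the median, for 25 mM to 5 mM glucose in Huh7 (blue) and PLC cells (orange) on the left and for PLC to Huh7 cells at 5 mM (grey) and 25 mM (purple) on the right. The medians of the glucose ratios lie between -0.17 and 0.20, and the ratios between the lines spread more widely, with SPINT2 the outermost point on the right.

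Some of the exons of the members lie under exons of other genes, and the strand setting of the count is not given in the sources used here. EGFR shares 186 exon bases with EGFR-AS1 on the other strand, which had 379, 377, 213 and 107 reads. ERBB2 shares 571 with MIEN1 and 144 with PGAP3, also on the other strand. ERBB3 shares 31 with AC034102.2, which had no reads, and AXL shares 67 with AC011510.1, which had 0, 0, 9 and 2 reads. EREG, AREG, HBEGF, MET and TGFA share no exon base with another gene of the table.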

How the data were processed

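RNA of Huh7 and PLC cells at 5 mM and 25 mM glucose was sequenced by the authors from rRNA-depleted, directional libraries. The deposited values are counts, whole reads per gene, not normalized, made per the submitters' processing notes with HISAT2 and featureCounts on hg38; versions, annotation release and strand setting are not given in the sources used here. Of 59657 lines, 59652 were used, and 5 lines of a broken entry (ANK2) were left out. The 37 mitochondrial genes had 0 reads. Libraries held 21376239, 30085303, 30279716 and 16049686 reads (Huh7 5 mM and 25 mM, PLC 5 mM and 25 mM), and lower depth widens the counting intervals.

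FPKM was computed here from counts, the table's gene lengths and library totals. The thresholds (FPKM over 0.5, ratio over 1.5 or under 0.67) are those of the study, with the FPKM needed in at least 1 of 2 libraries. Tests across all genes used edgeR 4.0.16 in R 4.3.3 (TMM, filterByExpr, quasi-likelihood, Benjamini-Hochberg, threshold 0.05) on all 4 libraries with the terms line and glucose. On simulated counts of 22341 genes it recovered 100% of 200 genes changed 4-fold by glucose, and 79.5% of 200 changed 2-fold among 22323. In that simulation all genes had the same spread, both lines answered glucose alike, and genes with few reads were not changed. It does not show how often a scarce gene is recovered. Alternatives were DESeq2 1.42.0, limma 3.58.1 with voom, other scalings, filters, added FPKM and thresholds, and terms left out. Each library was also left out in turn for the line difference, with no term for glucose.

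Groups came from the sample labels. The members and lists were chosen with earlier results of these data known. Some genes of the adaptor list are not reported here. Named are the members, and within each list genes with many reads or a large ratio (at least 20 reads). Other genes called and EGF, BTC, GAS6, ADAM17 and HRAS are named as list members, chosen after their values were seen. Promoter sequences are from RefSeq (GRCh38.p14), and exon overlaps from the table's own exon coordinates.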

Additional observations from a re-analysis of the deposited data

Results flagged for a closer look

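For 11 genes of the pathway lists the ratio of 25 mM to 5 mM lay on opposite sides of 1 in Huh7 and PLC cells, with both counting intervals clear of 1. This difference itself was not tested, since each line has 1 library per concentration. None of the 9 receptors and ligands is among them. Ratios are of FPKM by library totals with 0.1 added, and other scalings were not tried for this set. In PLC cells TMM factors lower the glucose ratios, as for MET from 0.661 to 0.608. Genes with a PLC ratio just above 1, such as NRAS and ERBB4, may therefore change sides with the scaling. Lower in Huh7 and higher in PLC cells were ERBB4 at 0.765 and 1.12 (from 16 and 8 reads in Huh7 cells), RHBDF2 at 0.692 and 1.23, SHC1 at 0.778 and 1.145, PLCG1 at 0.883 and 1.42, NRAS at 0.951 and 1.11, SPRY2 at 0.889 and 1.67 and CCND1 at 0.815 and 1.147. Higher in Huh7 and lower in PLC cells were PROS1 at 1.17 and 0.900, MAP2K1 at 1.23 and 0.931, CBL at 1.14 and 0.837 and ETV5 at 1.20 and 0.811. By the thresholds SPRY2 in PLC cells was called and the others were not.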

How the results depend on the processing

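The labels carry no replicate numbers, so no replicate block could be formed beyond the cell line, which is already a term of the glucose fit and pairs its libraries. Of the receptors and ligands, EREG and AREG were called lower at 25 mM in both lines in every scaling and filter tried, except that with ratios over 2 or under 0.5 AREG was not called in PLC cells. Counts of genes called moved more. For glucose in Huh7 cells 6068 genes became 3092 with an FPKM of 1 added, 3427 with FPKM over 0.5 in both libraries, 3698 with at least 20 reads and 3066 with ratios over 2 or under 0.5. In PLC cells 9409 became 5982, 5917 and, with ratios over 2 or under 0.5, 5253, and the members called went from 4 to 2, EREG and HBEGF. For the lines at 5 mM 15690 became 8716 with FPKM in both libraries, and the members called went from 5 to 3 with an FPKM of 1 added or with ratios over 2 or under 0.5. At 25 mM 15507 became 8541, and members went from 4 to 2, both with FPKM in both libraries. In edgeR the line difference went from 9974 genes to 6590 with at least 10 counts in every library, and to between 5249 and 11598 genes and 3 and 7 members when 1 library was left out. The fits with 1 library left out had no term for glucose, and in them the arm with 1 library is assumed to vary like the others. MET changed sign, to -0.21, without PLC cells at 5 mM. There PLC cells at 25 mM (FPKM of MET 27.6) stood against both Huh7 libraries (32.2 and 29.2). Without PLC cells at 25 mM, EGFR was at 0.67, MET at 0.54 and ERBB2 at -0.57. The shared glucose change went from 88 genes to 19 by library totals, 526 with no filter, 0 with no term for cell line and 194 by DESeq2, and members from 1 to 2 with no filter and 0 with no term for cell line. The cause of these moves was not tested. The depth limits AXL, AREG and HBEGF in Huh7 cells, HBEGF in PLC cells at 25 mM and TGFA in all libraries.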

Other observations

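Genes with profiles most like those of AXL and EREG were looked up among 17350 genes with at least 100 reads over the 4 libraries, by the Euclidean distance of centred log2(FPKM + 0.1) values over the 4 libraries. AXL and EREG had the widest ranges among the receptors and ligands, 6.66 and 6.68 on that scale. The nearest to EREG was RBM24, an RNA-binding protein gene, at a distance of 0.380, with an FPKM of 0.929 and 0.214 in Huh7 cells against 22.6 and 9.15 in PLC cells. The next were the ribosomal protein pseudogene RPL7AP28 at 0.872 and GLI1, a transcription factor of Hedgehog signalling, at 0.906, with an FPKM of 0.482 and 0.0656 in Huh7 cells against 10.1 and 7.42 in PLC cells. The nearest to AXL were ANKRD26P1 (0.0661), PAGE2B (0.165) and POTEKP (0.198), each with 0 reads in both Huh7 libraries. These are pseudogenes or members of families with near-identical copies, so their reads are uncertain, and 4 libraries are few for a likeness.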
